A study of Mus musculus with 12 samples.

Results

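Hnrnpd encodes hnRNP D, also called AUF1, one of the heterogeneous nuclear ribonucleoproteins (hnRNPs), and was described here with 9 other genes of the family: Hnrnpa1, Hnrnpa2b1, Hnrnpab, Hnrnpc, Hnrnpf, Hnrnph1, Hnrnpk, Hnrnpl and Hnrnpu. The members were all probe sets that the array's annotation assigned to exactly 1 of these symbols, which gave 33 of the 22626 probe sets tested and 10 of 12393 genes. Hnrnpd had 1 probe set, 1425142_a_at. It was chosen because its quercetin difference in wild-type mice stood out, so the wild-type quercetin difference, for every member, is a description and carries no test. RNA came from scrapings of the ileal epithelial layer of male C57BL/6 mice aged 6 to 8 weeks and was measured on Affymetrix 430A arrays as log2 expression levels. The groups were POR-null mice on quercetin, POR-null mice on the control diet, wild-type mice on quercetin and wild-type mice on the control diet, with 3 arrays per group and RNA pooled from 3 mice on each array. The label POR-null refers to deletion of the gene for cytochrome P450 reductase, the electron donor of microsomal P450 enzymes. The tissues in which the gene is deleted are not stated in the labels, so its loss in the ileum is not known here. All mice were adapted for 14 days to a soya-free powdered diet, which then continued alone (control) or with the plant flavonol quercetin at 6.2 g per kg of diet, 7 mg per mouse, for 24 h.

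hnRNPs coat nuclear pre-mRNA as it is made and take part in splicing, export, stability and translation of the message. Most contain RNA recognition motifs, while hnRNP K binds RNA through KH domains. hnRNP D binds AU-rich elements in the 3′ untranslated regions of short-lived mRNAs, such as those of cytokines and early response genes, and in most settings it hastens their decay. In intestinal epithelium the family is expressed throughout, with much splicing and ribosome production in the dividing crypt cells.

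Array medians lay between 5.91 and 5.96, and replicate arrays had r of 0.992 to 0.996 with each other across all probe sets. Wild-type control replicate 2 stood apart, at -25.6 on a first principal component that held 19.7% of the variance, with the other 11 arrays between -10.8 and 10.6. No probe set of Por was analysed here, so the targeted gene gives no check of the genotypes. Of the ileal markers, the bile acid binding protein gene Fabp6 averaged 12.19 ± 0.17 in POR-null quercetin, 12.32 ± 0.13 in POR-null control, 12.66 ± 0.10 in wild-type quercetin and 12.52 ± 0.22 in wild-type control arrays (SD, n = 3 each). Slc10a2, the ileal bile acid transporter gene, was more variable, at 7.00 ± 0.88 in POR-null quercetin, 6.88 ± 0.18 in POR-null control, 6.23 ± 0.99 in wild-type quercetin and 6.20 ± 0.85 in wild-type control arrays. The hormone gene Fgf15 averaged 5.54 ± 0.17 in POR-null quercetin, 6.45 ± 1.01 in POR-null control, 7.89 ± 0.94 in wild-type quercetin and 6.63 ± 0.0058 in wild-type control arrays. None of the 8 ileal enterocyte markers lay below the lower quartile of all probe set levels, but neither did any of 5 proximal intestine or 3 liver and pancreas markers, so this does not single out ileum. In such bulk RNA, fewer cells of a type and less RNA per cell cannot be told apart. P-values weigh a difference against the spread between pools of 3 mice, so the spread between single mice is not seen.

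The promoter of Hnrnpd is shown because its level set the pattern described, with the promoters of the members whose levels followed it most closely over the 12 arrays (Hnrnpab) and least closely (Hnrnpc). Each line gives the 250 bases before the annotated start, read 5′ to 3′ on the gene's minus strand, from RefSeq on build GRCm38.p6 (chr5:99978939-99979188 for Hnrnpd, chr11:51606882-51607131 for Hnrnpab and chr14:52104022-52104271 for Hnrnpc). Capitals mark GC boxes (GGGCGG or CCGCCC) and CCAAT boxes (CCAAT or ATTGG).
Hnrnpd: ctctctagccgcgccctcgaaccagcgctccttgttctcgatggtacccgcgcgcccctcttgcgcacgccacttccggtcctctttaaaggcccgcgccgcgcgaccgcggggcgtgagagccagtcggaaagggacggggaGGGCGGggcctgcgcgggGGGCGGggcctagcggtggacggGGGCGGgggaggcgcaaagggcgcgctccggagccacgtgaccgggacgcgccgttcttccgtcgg
Hnrnpab: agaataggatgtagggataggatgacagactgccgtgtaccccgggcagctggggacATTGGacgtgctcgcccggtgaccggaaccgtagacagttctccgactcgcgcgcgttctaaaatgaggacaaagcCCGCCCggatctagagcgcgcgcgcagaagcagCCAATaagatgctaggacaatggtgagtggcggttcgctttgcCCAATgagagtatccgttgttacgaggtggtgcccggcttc
Hnrnpc: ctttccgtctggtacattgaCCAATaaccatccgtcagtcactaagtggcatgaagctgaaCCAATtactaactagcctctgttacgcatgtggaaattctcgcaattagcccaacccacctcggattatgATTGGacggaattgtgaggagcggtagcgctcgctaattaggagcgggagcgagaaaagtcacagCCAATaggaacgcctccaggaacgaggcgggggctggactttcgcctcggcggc
The Hnrnpd window held 3 GC boxes and no CCAAT box, at 74.4% G and C. The Hnrnpab window held 1 GC box and 3 CCAAT boxes at 58.4%, and the Hnrnpc window held no GC box and 4 CCAAT boxes at 52.8%. Over all listed promoters of the 10 genes, 12 of 18 held a GC box, 12 of 18 a CCAAT box and 0 of 18 a TATA box (TATAAA or TTTATA), all searched on both strands. The shares among 32851 promoters of the same length were 32.7%, 33.8% and 12.4%. A match of letters describes the window and is not evidence of a bound factor.

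Hnrnpd stood at 8.25, 8.02 and 8.32 in the POR-null quercetin arrays and at 8.52, 8.03 and 8.29 in the POR-null control arrays. In wild type it stood at 8.57, 8.57 and 8.58 on quercetin, against 7.92, 7.61 and 7.88 on the control diet. The 3 wild-type quercetin arrays were the highest of all 12 and nearly equal, the 3 wild-type controls were the lowest, and both POR-null groups lay between them and overlapped each other. The group means were 8.20 ± 0.16 in POR-null quercetin, 8.28 ± 0.25 in POR-null control, 8.57 ± 0.0058 in wild-type quercetin and 7.80 ± 0.17 in wild-type control (SD, n = 3 each). From the top, the order was therefore wild-type quercetin, POR-null control, POR-null quercetin and wild-type control. The neighbours POR-null control and POR-null quercetin did not differ beyond their spread, while the other neighbouring groups did not overlap, with 8.57 the lowest wild-type quercetin array and 8.52 the highest POR-null control array. In wild type, quercetin minus control was 0.77 ± 0.12 (log2, SE), a ratio of 1.71. Without wild-type control replicate 2, the lowest array, this difference was 0.67.

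**Figure D1:**
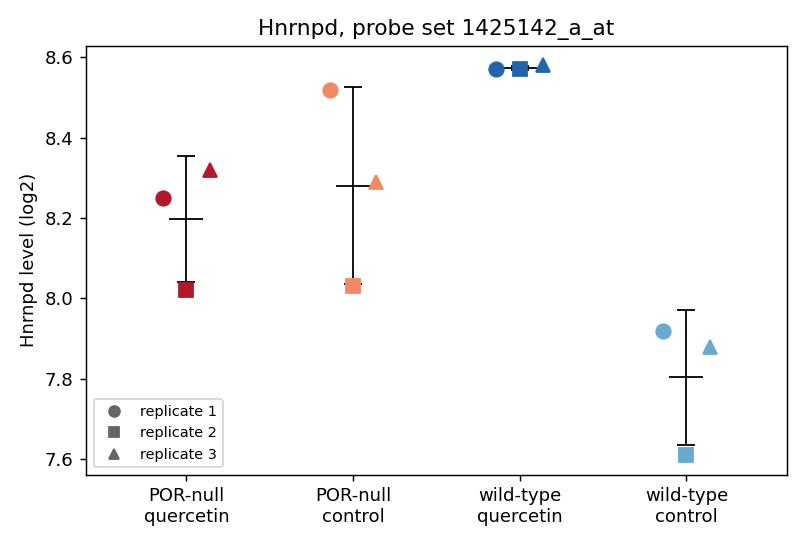
Level of Hnrnpd (log2) on each of the 12 arrays, by group, with replicates as symbols and the mean and SD as bars. The wild-type quercetin arrays sit at 8.57 to 8.58, the wild-type controls at 7.61 to 7.92, and the POR-null arrays at 8.02 to 8.52 between them.

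The comparison of diets in POR-null mice asked whether the level of Hnrnpd differed there too. Its difference takes no value from the wild-type arrays in which Hnrnpd was noticed, but its SE, p and interval use a spread estimated over all 12 arrays, the wild-type ones included. Hnrnpd did not pass: quercetin minus control was -0.08 ± 0.12 (log2, SE; limma, adjusted p = 0.927), with a 95% interval of -0.34 to 0.17. Fitted on the 6 POR-null arrays alone, limma gave an adjusted p of 0.899. The difference between these quercetin effects, POR-null minus wild type, was -0.85 ± 0.17, and contains the wild-type difference, so it is given without a test. On the control diet Hnrnpd was 0.48 ± 0.12 higher in POR-null than in wild type, and on quercetin the difference was -0.38 ± 0.12. These share the arrays of the wild-type groups and are descriptions as well. Averaged over both diets, which balances the wild-type groups, POR-null minus wild type was 0.05 ± 0.08 (limma, adjusted p = 0.957; 95% interval -0.13 to 0.23).

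Hnrnpab encodes the relative of hnRNP D known as CArG box binding factor A. Its brightest probe set, 1415914_at, stood at 9.69, 9.61 and 9.70 in POR-null quercetin and 9.71, 9.65 and 9.51 in POR-null control arrays. It read 9.73, 9.73 and 9.78 in wild-type quercetin and 9.68, 9.37 and 9.67 in wild-type control arrays. Wild-type quercetin was again above wild-type control with no overlap, by 0.17 ± 0.09, and wild-type control replicate 2 was the lowest array at 9.37. In POR-null the difference was 0.04 ± 0.09 (limma, adjusted p = 0.951). Its 6 other probe sets differed between -0.14 and 0.24 in wild type and between -0.41 and 0.03 in POR-null. The value of -0.14 came from 1459880_at, which was dim (3.46 to 3.80). The other Hnrnpab probe sets were all higher on quercetin in wild type. Between the 7 probe sets of Hnrnpab, r over the arrays ran from -0.65 to 0.88. The lowest was between 1459880_at and the brightest probe set, so the dim probe set did not follow it. The value of -0.41 came from 1426114_at, which read 8.16 in POR-null quercetin replicate 2 and 9.19 or more on every other array.

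Hnrnpdl, the hnRNP D-like gene, neighbours Hnrnpd on chromosome 5, with 2 annotated genes between them in the RefSeq table. Its brightest probe set stood at 9.85, 9.75 and 9.90 in POR-null quercetin and 9.72, 9.82 and 9.63 in POR-null control arrays. The levels were 10.23, 9.94 and 9.82 in wild-type quercetin and 9.94, 9.52 and 9.56 in wild-type control arrays. Quercetin minus control was 0.11 in POR-null (limma, adjusted p = 0.901) and 0.32 in wild type, where the groups overlapped. The wild-type difference was above 0 on all 6 Hnrnpdl probe sets (0.03 to 0.46), while in POR-null it ran from -0.13 to 0.11.

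Hnrnpa1 and Hnrnpa2b1 encode core particle proteins that regulate splice site choice, and hnRNP A2/B1 also carries mRNAs to their sites of translation. Of Hnrnpa1, probe set 1436549_a_at read 6.32, 6.36 and 6.62 in POR-null quercetin and 6.26, 6.43 and 6.47 in POR-null control arrays. It read 6.59, 6.72 and 6.75 in wild-type quercetin and 6.44, 5.98 and 6.17 in wild-type control arrays. After Hnrnpd this was the largest wild-type difference among the 33 probe sets, 0.49 ± 0.11, without overlap, while POR-null gave 0.05 ± 0.11 (limma, adjusted p = 0.963). The brighter probe set of Hnrnpa1, 1455305_x_at, overlapped between all groups and differed by 0.20 ± 0.14 in wild type and -0.10 ± 0.14 in POR-null, and the third was dim. Hnrnpa1 has processed copies elsewhere in the genome, so its levels are uncertain. Over the 10 genes, 3 more probe sets named a member together with other symbols and were left out. The brightest Hnrnpa2b1 probe set averaged 9.00 ± 0.18 in POR-null quercetin, 9.04 ± 0.15 in POR-null control, 9.16 ± 0.06 in wild-type quercetin and 8.87 ± 0.33 in wild-type control arrays (SD, n = 3 each). All 4 Hnrnpa2b1 probe sets were higher on quercetin in wild type, by 0.15 to 0.35, but each overlapped with the controls. In POR-null they ran from -0.18 to 0.02.

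Hnrnpc encodes a protein that binds uridine tracts and packages pre-mRNA. It did not share the pattern of Hnrnpd: its brightest probe set averaged 9.48 ± 0.03 in POR-null quercetin, 9.60 ± 0.03 in POR-null control, 9.61 ± 0.09 in wild-type quercetin and 9.64 ± 0.18 in wild-type control arrays (SD, n = 3 each). Both Hnrnpc probe sets were close to 0 in wild type (-0.03 and 0.01). In POR-null the brighter one differed by -0.12 ± 0.09, with the 3 quercetin arrays (9.52, 9.46 and 9.46) below the 3 controls (9.57, 9.59 and 9.63), and did not pass (limma, adjusted p = 0.842). The dimmer one, 1418693_at, differed between genotypes by -0.17 ± 0.06 averaged over diets, also short of the threshold (limma, adjusted p = 0.535).

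Hnrnpf and Hnrnph1 encode closely related proteins that bind runs of G and act in splicing and polyadenylation. The Hnrnph1 probe set 1415872_at read 8.61, 8.67 and 9.06 in POR-null quercetin and 9.13, 8.88 and 8.96 in POR-null control arrays. In wild type it read 8.84, 9.04 and 9.14 on quercetin, against 8.81, 8.71 and 8.83 on control. Wild type thus differed by 0.22 ± 0.12, without overlap, the nearest arrays being 8.84 and 8.83. POR-null differed by -0.21 ± 0.12, with overlap (limma, adjusted p = 0.780). The second Hnrnph1 probe set did not follow it in POR-null, with a difference of 0.21 there and 0.18 in wild type. The differences of the 4 Hnrnpf probe sets ran from 0.11 to 0.30 in wild type and from -0.23 to -0.07 in POR-null. Among them, 1450963_at read 7.75, 7.94 and 8.09 in POR-null quercetin and 8.16, 8.15 and 8.16 in POR-null control arrays, a difference of -0.23 ± 0.10 without overlap that did not pass (limma, adjusted p = 0.726). It had the smallest p of the 33 in that comparison.

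Hnrnpk, whose protein binds C-rich stretches, averaged 9.44 ± 0.13 in POR-null quercetin, 9.54 ± 0.02 in POR-null control, 9.59 ± 0.07 in wild-type quercetin and 9.45 ± 0.16 in wild-type control arrays on its brightest probe set (SD, n = 3 each). Its probe sets disagreed. In wild type 3 of them were higher on quercetin by 0.13 to 0.26, and 1454692_x_at was lower by 0.20, at 6.75, 6.67 and 6.73 on quercetin and 6.87, 6.98 and 6.89 on control. Probe sets marked _x hold probes that also match other sequences. The leading probe sets of Hnrnpa1 (1455305_x_at) and Hnrnpf (1456664_x_at) carry this mark too, as do further ones of Hnrnpa2b1, Hnrnpab, Hnrnpf and Hnrnph1. All of these were higher on quercetin in wild type, so the limit is not particular to the Hnrnpk probe set that was lower. Probe set 1454692_x_at had the smallest p of the 33 in the averaged genotype comparison, -0.19 ± 0.05 in POR-null minus wild type (limma, adjusted p = 0.411). Hnrnpl, whose protein binds CA repeats, had 1 probe set at 6.53 ± 0.40 in POR-null quercetin, 6.75 ± 0.29 in POR-null control, 6.72 ± 0.16 in wild-type quercetin and 6.83 ± 0.18 in wild-type control (SD, n = 3 each). It differed by -0.22 ± 0.18 in POR-null and -0.11 ± 0.18 in wild type. Hnrnpu encodes scaffold attachment factor A, which binds both RNA and chromatin. Its brightest probe set differed by 0.09 ± 0.11 on quercetin in each genotype, and its averaged genotype difference was 0.0017 ± 0.08. Its 4 other probe sets ran from 0.07 to 0.30 in wild type and from -0.10 to -0.02 in POR-null. The value of 0.30 came from the dimmest of them, 1434390_at, with a mean of 4.55.

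**Figure D2:**
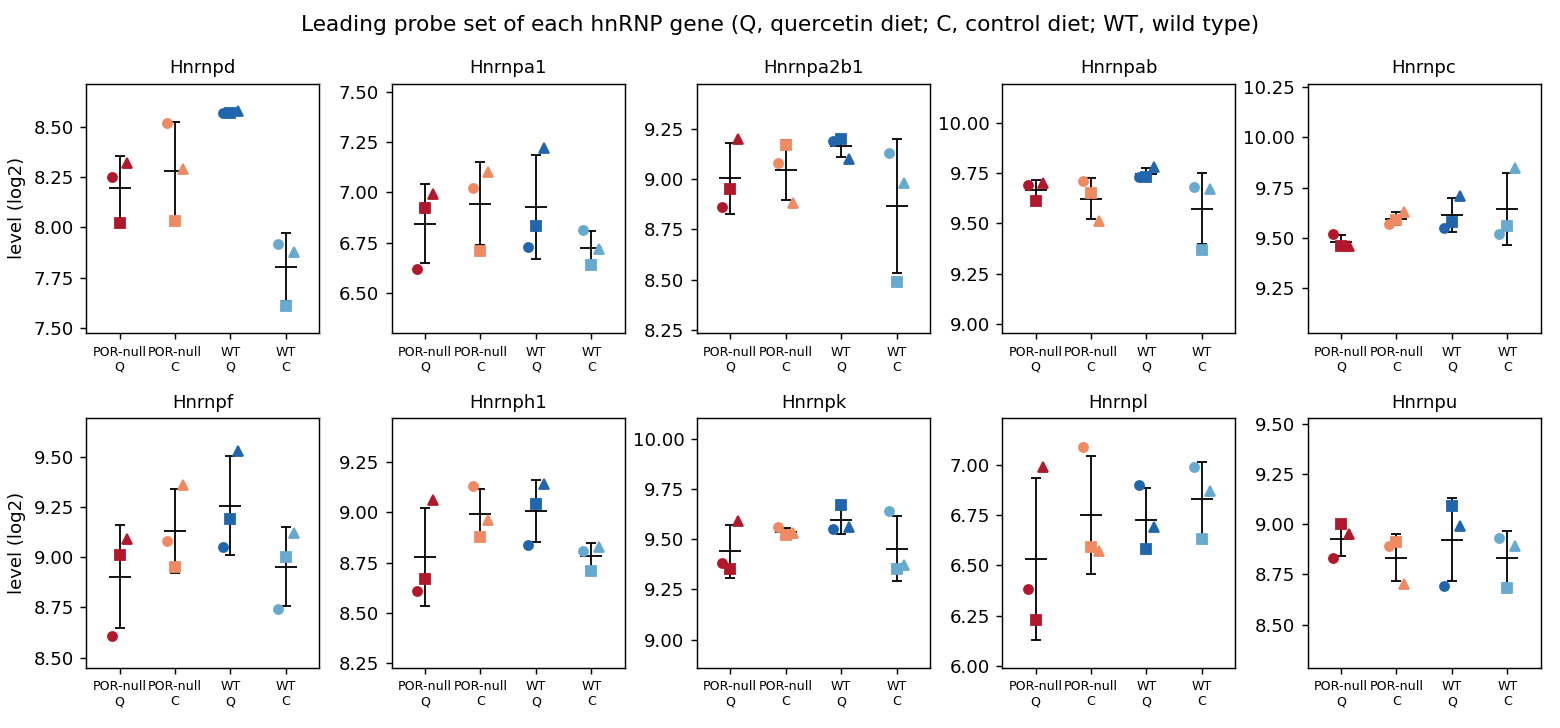
Level (log2) of the probe set with the highest mean for each of the 10 genes, by group, with replicates as symbols, mean and SD as bars, and the same span on each vertical axis. Hnrnpd alone of these 10 has wild-type quercetin at the top and wild-type control at the bottom with no overlap with the POR-null groups.

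As a group, the 33 probe sets gave 0 calls in each tested comparison. For quercetin in POR-null, limma called 0 of 33, with 0% of all probe sets called, and 1 of 33 had an unadjusted p under 0.05, against 6.65% of all probe sets. For genotype averaged over diets, 0 of 33 were called (0% of all), with 2 of 33 at an unadjusted p under 0.05 against 7.12% of all. The genotype comparisons on each diet share the wild-type arrays in which Hnrnpd was noticed and are therefore given without a test for any member.

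The signs of the differences were uneven. In wild type 29 of 33 probe sets were higher on quercetin than on control, against 41.8% of all probe sets, and the median difference was 0.17 against -0.02 over all. Groups did not overlap for 6 of 33 that were higher, against 5.33% of all, and for 1 that was lower, against 8.08% of all. Among the 6, Hnrnpab 1431349_at was dim, with a mean of 3.63. Since Hnrnpd was noticed in this comparison, these counts are given as description. In POR-null 8 of 33 were higher on quercetin, against 54.5% of all, with a median of -0.06 against 0.01, and without POR-null quercetin replicate 1 or replicate 2 the count was 13. There 0 of 33 were higher without overlap (7.45% of all) and 2 were lower without overlap (5.11% of all). Of the 33 members, 4 lay below the lower quartile of probe set levels. Most members were bright, 28 of 33 having a mean above the median level, and among all such brighter probe sets 46.9% were higher on quercetin in POR-null and 49.3% in wild type. Probe sets of 1 gene share their transcripts and are not independent. Counting 1 leading probe set per gene, 2 of 10 genes were higher on quercetin in POR-null and 8 of 10 in wild type, where Hnrnpc and Hnrnpl were lower.

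**Figure D3:**
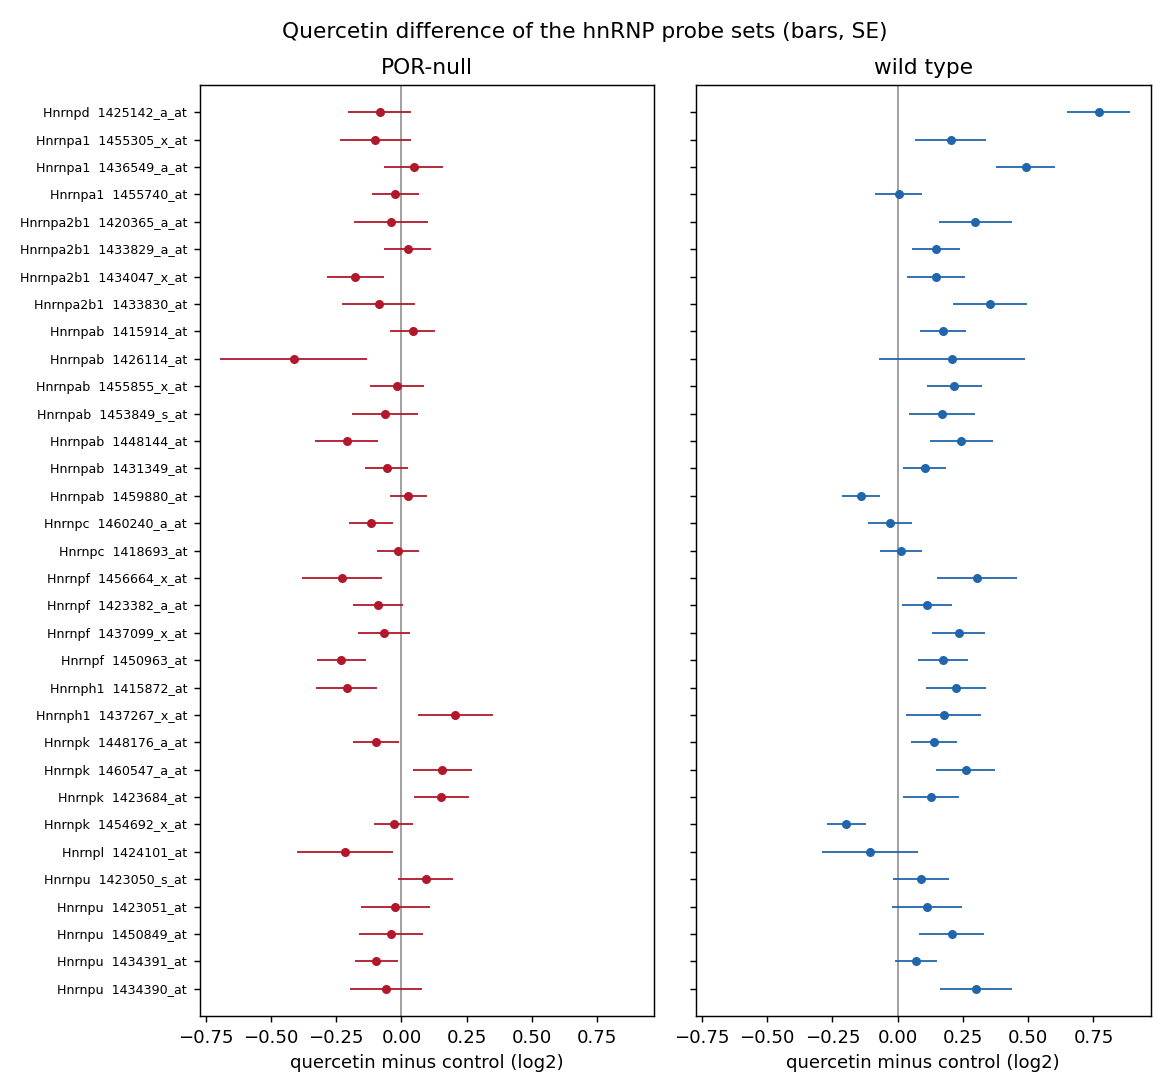
Quercetin minus control difference (log2) of each of the 33 probe sets, in POR-null mice (left) and wild-type mice (right), with the SE as bars. In wild type 29 points lie above 0 with Hnrnpd at 0.77 the farthest, and in POR-null 8 lie above 0.

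Between genotypes, 23 of 33 probe sets were higher in POR-null than in wild type on the control diet (43.4% of all), and 3 of 33 on quercetin (54.9% of all). The medians were 0.08 and -0.15, against -0.02 and 0.01 over all probe sets. Without wild-type control replicate 2, the control diet count was 19 and its median 0.01. On the control diet 4 were higher without overlap (5.15% of all) and 2 lower (8.71% of all). On quercetin 6 were lower without overlap (5% of all) and none was higher (7.28% of all). These comparisons share the wild-type arrays with the wild-type diet comparison, so the counts are not separate evidence. The signed quercetin difference was higher (more positive or less negative) in POR-null than in wild type for 5 of 33 probe sets, against 57% of all. This count contains the wild-type difference and does not compare the sizes of the effects. It was 2 without wild-type control replicate 1 and 3 without wild-type quercetin replicate 1. Averaged over diets, 14 of 33 were higher in POR-null, against 48.6% of all, and 7 of 33 without wild-type control replicate 2. The count on quercetin was 9 without POR-null quercetin replicate 1 and 6 without wild-type quercetin replicate 3.

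Wild-type quercetin replicate 3 was the highest array for 14 of the 33 probe sets, against 5.20% of all probe sets. Wild-type control replicate 2 and POR-null quercetin replicate 1 were each the lowest array for 7 of 33, against 11.9% and 5.06% of all. After centring each probe set on its mean, the family averaged -0.12, -0.10 and 0.07 in POR-null quercetin arrays and 0.04, -0.03 and 0.03 in POR-null control arrays. It averaged 0.06, 0.06 and 0.19 in wild-type quercetin arrays and 0.04, -0.17 and -0.06 in wild-type control arrays. Without wild-type control replicate 2, 26 of 33 probe sets were still higher on quercetin in wild type, with a median of 0.11.

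Of 7209 genes with a mean above the median level, those whose levels over the 12 arrays were most like Hnrnpd were the ribosomal protein gene Rpl4 (r = 0.92), Nop53, a ribosome biogenesis factor (0.90), Gaa, lysosomal alpha-glucosidase (0.89), the ribosomal protein gene Rpl8 (0.89) and Apoe, apolipoprotein E (0.89). Rpl4 averaged 11.88 in POR-null quercetin, 11.85 in POR-null control, 11.98 in wild-type quercetin and 11.68 in wild-type control, the same top and bottom groups as Hnrnpd over a narrower range. After removing group means its r with Hnrnpd was 0.81, while that of Nop53 was 0.42. The least like were Sugp2, a splicing-related gene (-0.86), Tm7sf2, a sterol reductase (-0.85), and the collagen gene Col9a1 (-0.85). Within the family, r with Hnrnpd was 0.71 for Hnrnpab, 0.65 for Hnrnph1, 0.63 for Hnrnpa2b1, 0.61 for Hnrnpk, 0.53 for Hnrnpa1, 0.43 for Hnrnpf, 0.25 for Hnrnpu, 0.18 for Hnrnpl and -0.04 for Hnrnpc. After removing group means the order differed: 0.75 for Hnrnpl, 0.62 for Hnrnpab, 0.59 for Hnrnph1, 0.51 for Hnrnpk, 0.41 for Hnrnpa2b1, 0.38 for Hnrnpa1, 0.13 for Hnrnpc, 0.12 for Hnrnpu and 0.018 for Hnrnpf. Over the 7209 genes the median r was 0.02 and the 90th percentile 0.53. These values describe 12 arrays that share the group structure, and were picked from many genes.

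For the gene lists that follow, the comparison is with all genes, of which 55.8% were higher on quercetin in POR-null (median 0.02), 42.5% on quercetin in wild type (median -0.02) and 48.6% in POR-null averaged over diets (median -0.0017). Of all probe sets, limma called 0% in POR-null and 0% in the averaged comparison, and 6.65% and 7.12% had an unadjusted p under 0.05. Further hnRNP genes were counted from a list of 24, of which 20 were measured. In POR-null 7 of 20 were higher and 13 lower on quercetin, against 55.8% of all genes higher, with a median of -0.04 against 0.02. Limma called 0 of 20, and 3 had an unadjusted p under 0.05, against 6.65% of all probe sets: Ptbp3, a polypyrimidine tract binding protein (-0.29 ± 0.08, adjusted p = 0.658), the poly(C) binding protein gene Pcbp2 (-0.23 ± 0.09, 0.712) and Syncrip, hnRNP Q (-0.19 ± 0.08, 0.732). Averaged over diets, 11 were higher and 9 lower in POR-null with 0 called by limma, and 1 had an unadjusted p under 0.05, Hnrnpll (0.16 ± 0.07, adjusted p = 0.669). In wild type 15 of 20 had a positive quercetin difference, and the median was 0.13 against -0.02 over all genes.

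The SR proteins, splicing activators that often oppose hnRNPs, gave 11 measured genes of 12 listed. In POR-null 5 were higher and 6 lower on quercetin with a median of -0.04, and limma called 0, with 0 at an unadjusted p under 0.05. Averaged over diets 3 were higher and 8 lower in POR-null, again with 0 called by limma and 0 at an unadjusted p under 0.05. In wild type the quercetin difference was positive for 9 of 11, against 42.5% of all genes, with a median of 0.18 against -0.02. Of 9 other genes for AU-rich element binding proteins, 8 were measured. Limma called none of them, and in POR-null 4 were higher and 4 lower on quercetin, with 1 at an unadjusted p under 0.05. That was Zfp36l1, a decay factor of the tristetraprolin family, at 6.87 ± 0.22 in POR-null quercetin and 7.38 ± 0.19 in POR-null control (SD, n = 3 each; difference -0.51 ± 0.13, adjusted p = 0.526). It was also the 1 gene of this list at an unadjusted p under 0.05 in the averaged genotype comparison (-0.21 ± 0.09, adjusted p = 0.692), in which 1 gene was higher and 7 were lower. In wild type the quercetin difference was positive for 7 of 8, against 42.5% of all genes, with a median of 0.12 against -0.02.

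Transcripts known as targets of AUF1 were all measured, 11 of 11, with Il3 below the lower quartile of probe set levels. In POR-null 4 were higher and 7 lower on quercetin, against 55.8% of all genes higher, with a median of -0.10 against 0.02. In wild type also 4 were higher and 7 lower, against 42.5% of all genes higher, with a median of -0.06 against -0.02. Limma called none in POR-null, and none had an unadjusted p under 0.05. Named by the smallest p there, Tnf, a cytokine gene, differed by 0.14 ± 0.07 (adjusted p = 0.756), the transcription factor gene Myc by 0.22 ± 0.12 (0.778) and Fos, an early response gene, by -0.40 ± 0.23 (0.797). Averaged over diets, 2 were higher and 9 lower in POR-null, limma called 0, and 1 had an unadjusted p under 0.05, the cell cycle inhibitor Cdkn1a (-0.12 ± 0.05, adjusted p = 0.669).

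Some markers of other cells and of stress differed between the same groups. The mean level of 6 measured crypt and cycling cell markers, of 8 listed, ran from 6.86 to 7.19 in POR-null quercetin and 6.92 to 7.14 in POR-null control arrays. It ran from 7.07 to 7.26 in wild-type quercetin and 6.58 to 7.06 in wild-type control arrays. The wild-type groups thus narrowly missed overlap, whereas the nearest Hnrnpd arrays stood at 8.57 and 7.92. Of the 6 markers, 5 were higher on quercetin in wild type, and the stem cell gene Lgr5 did not differ (0 ± 0.09). The mean of 5 B and plasma cell markers, of 6 listed, ran from 6.98 to 7.33 in POR-null quercetin, 7.17 to 7.59 in POR-null control, 7.51 to 7.86 in wild-type quercetin and 6.88 to 7.47 in wild-type control arrays. These 5 did not move together. In POR-null Jchain differed by 0.45 ± 0.28 on quercetin, and the other 4 by -0.66 to -0.41. All 5 were higher on quercetin in wild type. The 4 stress genes Hspa1a, Hspa1b, Fos and Egr1 were each lower on quercetin in both genotypes. Their mean ran from 6.92 to 7.22 in POR-null quercetin and 7.23 to 8.35 in POR-null control arrays. It ran from 6.91 to 7.42 in wild-type quercetin and 7.68 to 8.12 in wild-type control arrays. Proximal intestine markers (5 of 6 measured) were highest in wild-type control replicate 2, at 8.29, against 6.89 to 7.71 on the other arrays. Smooth muscle and stroma markers (10 of 10 measured) ran from 6.46 to 6.87 in POR-null quercetin, 5.86 to 7.19 in POR-null control, 5.74 to 6.63 in wild-type quercetin and 5.65 to 6.12 in wild-type control. Averaged over diets, all 10 were higher in POR-null, against 48.6% of all genes, with a median of 0.54. Limma called 0 of them, and 6 had an unadjusted p under 0.05, against 7.12% of all probe sets. T cell markers (4 of 5) ran from 6.65 to 7.03 in POR-null quercetin, 6.69 to 6.90 in POR-null control, 6.58 to 6.95 in wild-type quercetin and 6.52 to 6.74 in wild-type control. Of all these markers, Col3a1 and Hspa1a lay below the lower quartile of probe set levels. The part of these markers in the levels of Hnrnpd and its family was not tested.

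**Figure D4:**
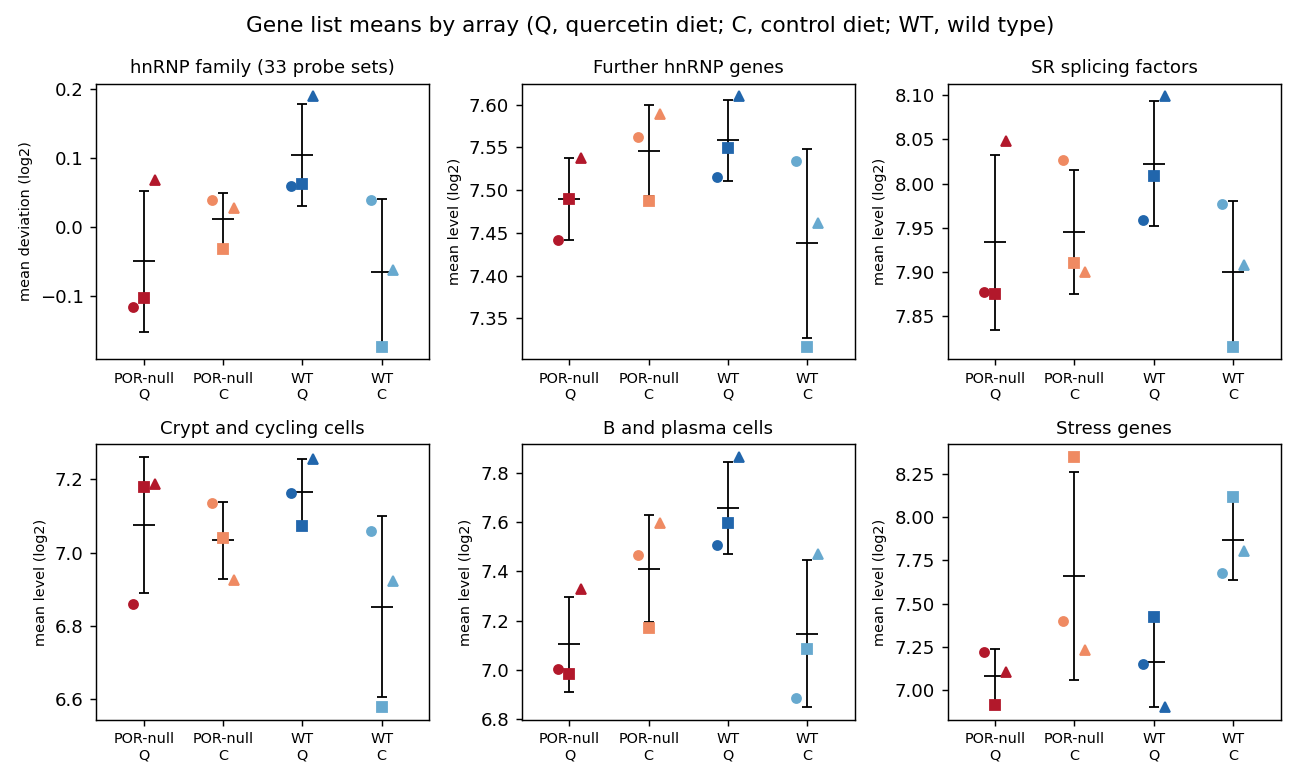
Mean of the 33 hnRNP probe sets after centring (log2 deviation) and mean level (log2) of 5 gene lists, by group, with replicates as symbols and the mean and SD as bars. Crypt and cycling markers and B and plasma cell markers are higher, and stress genes lower, in all wild-type quercetin arrays than in all wild-type control arrays. Stress genes are also lower in all POR-null quercetin arrays than in all POR-null control arrays, but only narrowly, the nearest being 7.22 and 7.23. In wild type the nearest arrays are 7.07 and 7.06 for crypt markers and 7.51 and 7.47 for B and plasma cell markers.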

How the data were processed

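Each array came with 1 log2 level per probe set as deposited by the authors. MAS5 and RMA are named, without a role or version, per the submitters' processing notes. The genome build is not given in the sources used here. Values ran from 2.66 to 14.04 and were used as deposited, and the number of arrays limits the precision. The table held 22690 probe sets, and 64 of them, the array's controls, were not tested. Symbols came from the platform annotation (20380 probe sets with 1 symbol, 691 with several, 1555 with none), and 20351 were matched by gene ID to RefSeq's GRCm38.p6 table, used for names, neighbours and promoters. A gene was led by its probe set with the highest mean.

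The 12 arrays entered 1 linear model with 4 group means (limma 3.58.1, R 4.3.3; residual degrees of freedom 8, prior 5.59), using Benjamini-Hochberg adjustment over all 22626 probe sets and a threshold of 0.05. The fit was tested on simulated data. Differences are quercetin minus control and POR-null minus wild type. All Hnrnpd values are given per array, other genes by their leading probe set, and the further probe sets named singly were chosen after their values were seen. Likeness was Pearson's r over 12 arrays, naming the 5 highest and 3 lowest genes, without predicted genes and with a mean above the median level. Of each further list, up to 3 genes with the smallest p were named. Genotype on each diet was planned as a test for the other genes and is given as a description, since it shares the wild-type arrays. Members and lists were chosen with earlier results of these data known. Alternatives were other normalizations, filters, variance models, array weights, a replicate block, fewer arrays and each array left out. Figures used Python 3.11.15 and matplotlib 3.10.9.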

Additional observations from a re-analysis of the deposited data

How the results depend on the processing

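Limma's count of hnRNP probe sets past the threshold was 0 for quercetin in POR-null and for genotype averaged over diets under every alternative run, a threshold of 0.1, the replicate block and each array left out among them. Whether same-numbered arrays belong together was not settled. Their deviations correlated between -0.18 and 0.16, over 0.1 in 3 of 18 pairs. The replicate block gave 0 calls in the tested comparisons, as did the fit without it, so this count cannot decide the question. The wild-type Hnrnpd difference stayed between 0.67 and 0.83 in all settings. Counts of probe sets with a positive sign depended more on the setting. On quercetin 3 of 33 were higher in POR-null, 1 with array medians centred and 2 to 9 with an array left out. For the difference of quercetin effects 5 of 33 were positive, 2 with medians centred and 2 to 7 with an array left out. Without probe sets below the median level, 3 of the 28 left were positive, a smaller count from fewer probe sets. The counts ran from 8 to 13 for quercetin in POR-null and from 7 to 18 for genotype averaged over diets with an array left out. Differences near 0 changed sign without being called. For averaged genotype, Hnrnpu was -0.0095 with quantile normalization, -0.005 with medians centred and -0.012 with array weights, and Hnrnpa2b1 -0.0053 with array weights. With an array left out, averaged genotype ran from -0.057 to 0.043 for Hnrnpu, -0.086 to 0.074 for Hnrnpa2b1, -0.066 to 0.013 for Hnrnpab, -0.08 to 0.033 for Hnrnph1 and -0.073 to 0.012 for Hnrnpk. Quercetin in POR-null ran from -0.21 to 0.037 for Hnrnpd, -0.22 to 0.012 for Hnrnpa1, -0.14 to 0.032 for Hnrnpa2b1 and -0.013 to 0.087 for Hnrnpab. The cause of the other changes was not tested. The mean of several Hnrnpd probe sets was not run, since it has 1, and the fit on only the arrays compared was not run for the average, which uses all 12.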
